A study of Mus musculus with 6 samples.

Results

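The C-type lectin receptors described here are 10 mouse genes, Clec4a1, Clec4a2, Clec4a3, Clec4b1, Clec4d, Clec4e, Clec4n, Clec5a, Clec7a and Clec12a, and they were chosen by their symbols among the 24940 genes of the deposited expression table. All 10 were found, and all 10 were kept by a filter on low values (mean over all libraries not under 0.5 RPKM), which left 11595 genes to be tested. RPKM counts reads on a gene relative to the length of its transcript and to all mapped reads of the library. The cells were bone marrow-derived macrophages (BMMs), which serve as osteoclast precursors. They came from mice that were C57BL/6 and 6 to 8 weeks old according to the labels. The study's methods instead name male ICR mice and give a narrower age range. All cells had first been grown from marrow with M-CSF, the growth factor that keeps macrophages alive, with a shorter step at a lower dose and then 3 days at 30 ng/mL, and the adherent cells were kept. Every culture then received M-CSF at 30 ng/mL, and the -R cultures received neither of the agents that follow. The +R cultures also received RANKL, the cytokine that drives osteoclast formation, at 100 ng/mL. The R+LE cultures received the same RANKL together with 10 μg/mL of a leaf extract (LE) of the shrub Abeliophyllum distichum, which is a mixture of plant compounds. For these libraries, the methods do not say whether cultures without the extract received its solvent. RNA was taken after 3 days and sequenced in 2 libraries for each condition. Neither the labels nor the methods say whether these came from separate cultures, so the spread between libraries may be technical.

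C-type lectin receptors of myeloid cells are surface proteins that bind sugars and lipids of fungi, bacteria and damaged host cells. Activating members signal through an immunoreceptor tyrosine-based activation motif (ITAM), which lies in a partner such as FcRγ (Fcer1g) or DAP12 (Tyrobp) or, as a shortened form, in the receptor's own tail, and which recruits the kinase Syk and then the adaptor Card9 to switch on NF-κB and cytokine genes. Inhibitory members carry an inhibitory motif (ITIM), which recruits phosphatases such as SHP-1 (Ptpn6). Osteoclast precursors use the same ITAM adaptors beside RANKL, where they supply the calcium signal that osteoclast formation needs.

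All 10 genes lie on chromosome 6, given here in the mm10 build. Of these, 7 lie between 122921848 and 123289871, a span of 368 kb. They run in the order Clec4a1, Clec4a3, Clec4b1, Clec4a2, Clec4n, Clec4d and Clec4e, with Clec4a4 and Clec4b2 among them. Clec4d (123262107 to 123275268, plus strand) and Clec4e (123281789 to 123289871, minus strand) point toward each other and are 6.52 kb apart. Clec12a (129350244 to 129365303, plus strand) and Clec7a (129461591 to 129472779, minus strand) lie in another cluster, and Clec5a (40574898 to 40585805, minus strand) lies apart from both. The exons of the 10 genes overlap no other annotated gene on either strand in GENCODE M21, which matters because the reads were counted without regard to strand. Of the 50-base windows of its transcripts, Clec4b1 shares 8.69% with Clec4a2, and Clec4a2 shares 6.83% with other genes, chiefly Clec4a4 and Clec4b1, so reads from those stretches could have been given to either gene.

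The promoters of Clec4d, Clec4e and Clec7a are shown because these were the genes with the largest differences between R+LE and +R, in both directions. Each is the 250 bases before the RefSeq start site (GRCm38, the same assembly as mm10), written 5′ to 3′ on the gene's strand, at chr6:123261857-123262106 (plus strand) for Clec4d, chr6:123289872-123290121 (minus strand) for Clec4e and chr6:129472786-129473035 (minus strand) for Clec7a. Capitals mark matches, on either strand, to a C/EBP motif (TTGCNNAA) or a PU.1 motif (GAGGAA), which are the binding motifs of factors that drive many myeloid genes.
Clec4d: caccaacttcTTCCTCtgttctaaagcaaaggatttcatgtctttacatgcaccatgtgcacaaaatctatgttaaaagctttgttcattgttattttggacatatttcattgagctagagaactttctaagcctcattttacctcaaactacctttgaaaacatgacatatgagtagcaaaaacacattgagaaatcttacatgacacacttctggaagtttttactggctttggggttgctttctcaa
Clec4e: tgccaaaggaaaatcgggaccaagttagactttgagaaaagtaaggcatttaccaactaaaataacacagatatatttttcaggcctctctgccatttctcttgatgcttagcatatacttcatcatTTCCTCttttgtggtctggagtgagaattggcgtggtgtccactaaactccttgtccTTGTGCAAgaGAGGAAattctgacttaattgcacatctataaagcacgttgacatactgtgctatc
Clec7a: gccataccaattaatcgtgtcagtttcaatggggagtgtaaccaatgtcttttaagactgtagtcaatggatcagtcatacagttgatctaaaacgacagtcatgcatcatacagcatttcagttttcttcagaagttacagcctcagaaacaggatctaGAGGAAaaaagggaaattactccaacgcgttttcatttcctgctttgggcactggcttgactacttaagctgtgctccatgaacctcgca

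In Clec4e the C/EBP match spans bases 66 to 59 before the start, with PU.1 matches at 56 to 51 and at 123 to 118. Clec4d holds a single PU.1 match at 240 to 235 and Clec7a one at 90 to 85, and neither holds the C/EBP letters in this window. Of the 10 receptors, 9 had a promoter in the RefSeq table, and Clec4n did not. The PU.1 letters were found in 7 of the 9, all but Clec4a2 and Clec4a3, against 23.1% of all 27025 promoters of that length, and the C/EBP letters in 2, Clec4e and Clec12a, against 9.55%. The NFAT letters TGGAAA were found in Clec4a2, Clec4a3, Clec4b1 and Clec5a, against 18.7% of all promoters. The windows of Clec4a2 and Clec4a3 are less certain than the others. The RefSeq start used for Clec4a2 lies at -626 bases relative to the start of that gene in the expression table. For Clec4a3, the bases after the RefSeq start were not found as 1 stretch in its GENCODE transcripts. An AP-1 motif (TGANTCA, 6.85% of all promoters) was found in Clec12a, an NF-κB motif (17.4%) in Clec4a1 and an interferon response element (3.05%) in Clec4b1. The E-box CACGTG (6.04%) and the antioxidant response element TGACNNNGC (10.1%) were in none of the 9. All motifs were searched on both strands, and the letters of different motifs did not overlap in the 3 promoters printed. These are matches of letters, not sites shown to be bound.

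The libraries held between 29390220 and 34846370 mapped reads, of which 74.2% to 80.7% lay on genes, and the least expressed receptor value rested on 18 reads (Clec4b1) and the highest on 11238 (Clec4d). The 3 conditions were fitted together with limma on log2(RPKM + 0.5), and p-values were adjusted by Benjamini-Hochberg over all 11595 genes. A gene passed the test at an adjusted p below 0.05 and was called if it also differed by at least 2-fold. All fold changes are on this scale, which understates the change of genes with low values. An exact two-sided permutation test of 2 libraries against 2 cannot give a p-value under 0.333, so these calls rest on the spread that limma shares between genes. Any 2 of the 3 comparisons share the libraries of 1 condition.

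In BMMs given M-CSF alone, Clec4d was by far the most abundant receptor of the 10. Its RPKM was 245 and 243 in the -R libraries, which placed it at rank 219 of 11595 genes, and it made up 53.9% ± 0.21 (SD, n = 2) of the summed RPKM of the 10. Clec12a followed at 57.7 and 59.4 RPKM and Clec4a2 at 36.2 and 36.8. Clec4a1, Clec4n, Clec4e, Clec4a3 and Clec7a lay between 15.4 and 24.5 RPKM in the -R libraries, and Clec5a and Clec4b1 between 5.42 and 7.88. Neighbours in this order overlapped from Clec4a1 through Clec4n and Clec4e to Clec4a3, and from Clec5a to Clec4b1, and were otherwise separate. In +R the order was led by Clec12a, Clec4a2 and Clec4d, with the last pair overlapping, and in R+LE again by Clec4d, followed by Clec12a and Clec4a2, which overlapped. Clec4b1 had the lowest mean in all 3 conditions, although in -R it overlapped with Clec5a.

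**Figure D1:**
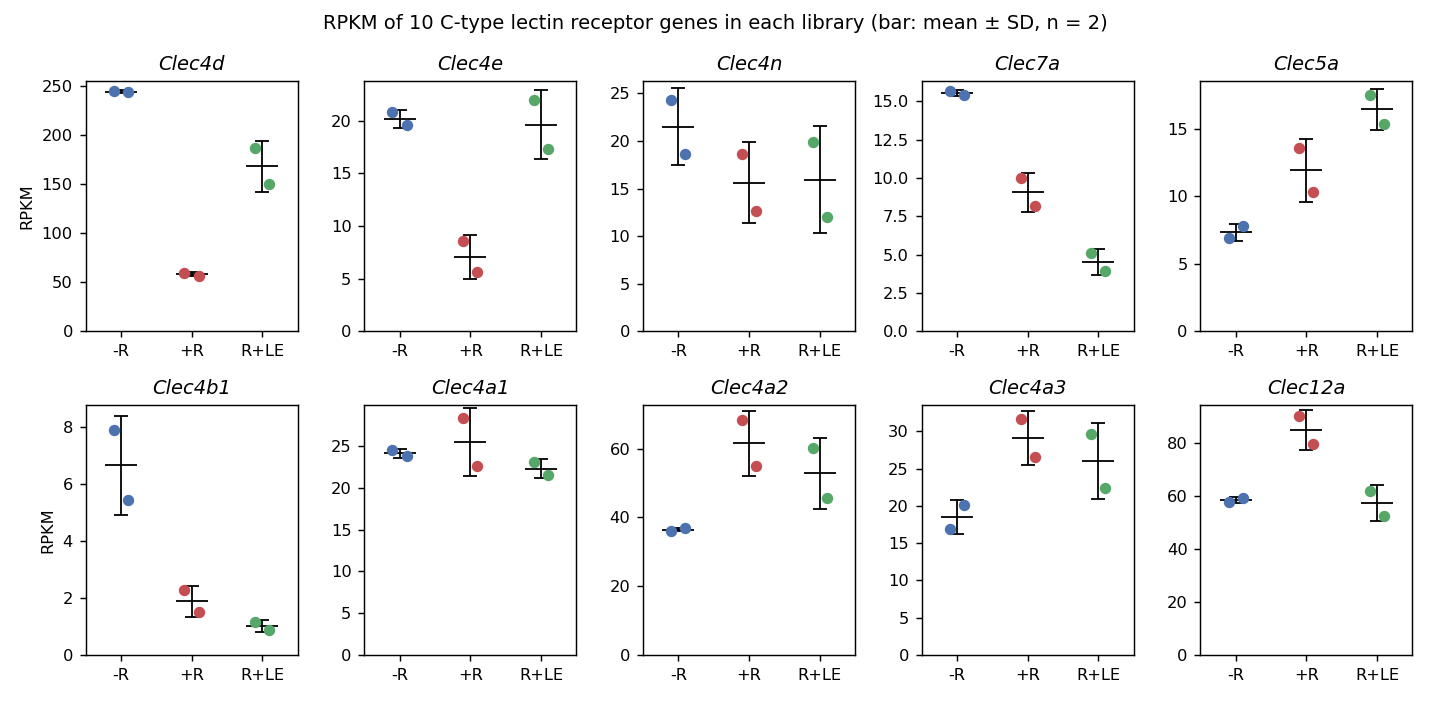
RPKM (vertical axis, from 0, a different range for each gene) of the 10 receptors in the -R, +R and R+LE libraries; points are libraries and bars are the mean ± SD (n = 2). Clec4d and Clec4e are lowest in +R, Clec7a steps down from -R to +R to R+LE, and Clec12a is highest in +R.

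The comparison of +R with -R asks what 3 days of RANKL did to these receptors. RANKL lowered the glycolipid receptors Clec4d and Clec4e, the related Clec4b1 and the β-glucan receptor Clec7a, and raised the inhibitory receptors Clec4a2 and Clec12a together with Clec4a3 and Clec5a. Of the 10, 4 passed the test as higher and 4 as lower, where 23.9% of all genes tested passed as higher and 21.5% as lower (45.4% together). At 2-fold, 3 were called, all lower (Clec4d, Clec4e and Clec4b1), where 8.92% of all genes were called lower and 6.58% higher, and none of the 10 was called higher under limma, or with voom or any other of the 16 alternatives. The median log2 fold change of the 10 was -0.20, against 0.05 over all genes tested.

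Among the activating receptors, Clec4d (also called MCL or Dectin-3) and Clec4e (Mincle) bind mycobacterial cord factor and pair with FcRγ. Clec4d had 245 and 243 RPKM for -R and 59.6 and 56.7 for +R. The conditions were far apart, and it was 4.17-fold lower in +R (log2 -2.06 ± 0.16 SE, adjusted p = 5.34e-08). Clec4e had 20.8 and 19.6 RPKM for -R and 8.54 and 5.59 for +R. Both +R libraries lay under both -R libraries, and the fold change was 2.79 downward (log2 -1.48 ± 0.18 SE, adjusted p = 7.17e-06). Clec4n (Dectin-2), the FcRγ-coupled receptor for fungal mannans and their neighbour on the chromosome, had 24.4 and 18.6 RPKM for -R and 18.6 and 12.6 for +R. The values of the conditions nearly met, and the difference did not pass (log2 -0.46, 95% confidence interval -0.94 to 0.01, adjusted p = 0.103). Clec4n passed without +R replicate 1 (log2 -0.74, adjusted p = 0.00249), and also without R+LE replicate 1 or 2 (adjusted p = 0.0374 and 0.0343).

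Clec4b1 encodes a receptor of the same family that also signals through FcRγ. Its RPKM was 7.88 and 5.42 for -R and 2.26 and 1.49 for +R, without overlap, and it fell by 1.59 on the log2 scale (SE 0.21, adjusted p = 1.49e-05). Clec7a (Dectin-1) binds β-glucans of fungal walls and signals through a motif of its own. It had 15.7 and 15.4 RPKM for -R and 9.97 and 8.16 for +R. The +R libraries were both lower, by 1.68-fold (log2 -0.75 ± 0.15 SE, adjusted p = 0.000998), under the 2-fold line. Clec5a (MDL-1), which signals through DAP12, went the other way, from 6.87 and 7.78 RPKM to 13.5 and 10.3. It rose by 0.66 on the log2 scale (adjusted p = 0.00288), but the adjusted p was 0.06 without +R replicate 1 and 0.0525 without -R replicate 1.

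The ITIM receptors Clec4a2 and Clec12a were higher in +R. Clec4a2 (DCIR) is known as a brake on dendritic cells and osteoclasts. It had 36.2 and 36.8 RPKM for -R and 68.3 and 54.9 for +R, a rise of 0.74 on the log2 scale (SE 0.17, adjusted p = 0.0019). Clec12a (MICL), which senses uric acid crystals of dead cells, had 57.7 and 59.4 RPKM for -R and 90.3 and 79.7 for +R. It rose by 0.53 on the log2 scale (SE 0.15, adjusted p = 0.00917), and it did not pass without -R replicate 1, -R replicate 2 or +R replicate 1 (adjusted p = 0.0885, 0.0658 and 0.114). Clec4a3, a relative of Clec4a2 whose tail lacks the ITIM, had 16.9 and 20.1 RPKM for -R and 31.7 and 26.6 for +R, and rose by 0.64 on the log2 scale (SE 0.16, adjusted p = 0.00477, or 0.0919 without -R replicate 1). Clec4a1, another relative without the ITIM, had 24.5 and 23.8 RPKM for -R and 28.3 and 22.6 for +R. The conditions overlapped, and the difference was within the spread (log2 0.07, 95% confidence interval -0.25 to 0.38, adjusted p = 0.739).

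Markers of cell types moved with the same conditions. With RANKL, 23.9% of all genes tested passed as higher and 21.5% as lower, which is the background for the counts here. All 10 osteoclast markers were higher in +R, with a summed RPKM of 43.4 to 45.0 for -R, 1951 to 2222 for +R and 346 to 402 for R+LE, and Oscar and Calcr at 0 reads in -R. Of 8 macrophage markers, 7 fell with RANKL, and the sum of the 8 was 6732 to 7319 for -R, 2692 to 3455 for +R and 3764 to 4206 for R+LE. Most of this sum was Lyz2, with means of 5317, 2132 and 3060 RPKM, and its difference with LE did not pass (adjusted p = 0.191). With LE, 6 of the 8 had a log2 fold change above 0, as did 4874 of the 11595 genes tested. Of these 6 markers, only Cd14 and Mertk passed. The other 2, Csf1r and Cd68, were below 0. Of 6 markers of inflammatory monocytes, 4 could be tested and all 4 fell, with sums of 171 to 186, 10.2 to 10.7 and 7.21 to 8.33, and Chil3 was at 0 reads in +R. Of 10 markers of neutrophils and their precursors, 4 could be tested and 3 fell, with sums of 19.96 to 20.1, 1.89 to 1.95 and 3.21 to 5.67 RPKM, with Elane at 0 reads in -R and R+LE, and S100a9, Mpo and Ltf at 0 in +R and R+LE, as Ly6g and Camp were in +R. The 8 dendritic cell markers summed to 14.2 to 14.7, 3.00 to 3.34 and 0.811 to 0.827 RPKM, with Cd209a and Ccr7 at 0 reads in R+LE. Most of the sum in -R was H2-Ab1 (12.3 and 11.1 RPKM), the 1 marker that could be tested, which fell in both comparisons. Zbtb46, too low to be tested, alone of the 8 had a higher mean in +R than in -R. It had 0.085 and 0.086 RPKM for -R, 0.714 and 0.941 for +R, and 0.079 and 0.213 for R+LE. The 6 stromal markers summed to 15.3 to 16.9, 10.9 to 15.01 and 8.07 to 8.97 RPKM, and none of the 3 tested passed with RANKL under limma, where 1 was lower at an unadjusted p below 0.05 and 1 by voom. The markers of mast cells and basophils summed to at most 0.091 RPKM in any library, with Cpa3, Mcpt4, Tpsb2 and Fcer1a at 0 reads throughout, and those of lymphocytes to between 0.828 and 0.984 RPKM in -R and at most 0.166 elsewhere, with Cd3e at 0 reads throughout. Several of the receptors are expressed by monocytes, neutrophils and dendritic cells, and the part of these cells in the receptor values was not tested. In bulk RNA, fewer cells of a type and less RNA per cell cannot be told apart.

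The comparison of R+LE with +R asks what the leaf extract did in the presence of RANKL. LE raised Clec4d and Clec4e, the neighbouring pair at the end of the cluster, and lowered Clec7a and Clec12a. Of the 10, 2 passed as higher and 2 as lower, where 12% of all genes tested passed in either direction (5.19% higher and 6.86% lower). At 2-fold, Clec4d and Clec4e were called higher, where 1.46% of all genes were called higher, and none of the 10 was called lower by limma, where 1.78% were. Of the 10, 2 were lower at an adjusted p below 0.05 under this fit, and voom called 1 lower, Clec7a. The median log2 fold change of the 10 was -0.17, against -0.05 over all genes tested.

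Clec4d had 59.6 and 56.7 RPKM for +R, and 187 and 150.0 for R+LE. Both R+LE libraries stood well above both +R libraries, and it rose 2.86-fold (log2 1.52 ± 0.16 SE, 95% confidence interval 1.18 to 1.86, adjusted p = 1.4e-05). Clec4e had 8.54 and 5.59 RPKM for +R and 21.9 and 17.3 for R+LE, again without overlap. It rose 2.70-fold (log2 1.43 ± 0.18 SE, 95% confidence interval 1.05 to 1.81, adjusted p = 7.03e-05). Under each of the 16 alternative settings tried, both stayed called higher, with log2 fold changes of 1.36 to 1.67 for Clec4d and 1.15 to 1.72 for Clec4e, and adjusted p-values of at most 0.0107 and 0.0363. Their neighbour Clec4n, 15.1 kb from Clec4d, had 18.6 and 12.6 RPKM for +R and 19.9 and 12.0 for R+LE. The conditions overlapped fully, and the difference was 0.01 on the log2 scale, with a 95% confidence interval of -0.46 to 0.48 (adjusted p = 0.986).

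Clec7a was the receptor that LE lowered most among those that passed. It had 9.97 and 8.16 RPKM for +R and 5.09 and 3.90 for R+LE, without overlap, and it fell by 0.94 on the log2 scale (SE 0.15, 95% confidence interval -1.27 to -0.61, adjusted p = 0.000768). This is 1.92-fold, just under the line for a call. Clec7a passed under all 16 alternatives and crossed 2-fold under 4 of them, without +R replicate 2 (log2 -1.08), without R+LE replicate 1 (-1.11), with voom on recovered reads (-1.01) and with a pseudocount of 0.1. Clec12a had 90.3 and 79.7 RPKM for +R and 62.1 and 52.6 for R+LE. Both R+LE libraries were lower, by 1.48-fold (log2 -0.57 ± 0.15 SE, adjusted p = 0.0212), but this passed under only 10 of the 16 alternatives. Leaving out +R replicate 1, R+LE replicate 2, -R replicate 1 or -R replicate 2 raised the adjusted p to 0.22, 0.0627, 0.0702 and 0.0714.

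The other receptors did not pass with LE. Clec4b1 had 2.26 and 1.49 RPKM for +R and 1.17 and 0.872 for R+LE, all low values, with a log2 difference of -0.63 (95% confidence interval -1.07 to -0.19, adjusted p = 0.0623). It passed when +R replicate 2 was left out (log2 -0.87, adjusted p = 0.00272). Clec5a had 13.5 and 10.3 RPKM for +R and 17.5 and 15.4 for R+LE. Its libraries did not overlap, and its log2 difference was 0.46 (95% confidence interval 0.13 to 0.79, adjusted p = 0.0724, or 0.0215 without +R replicate 1). Clec4a2 was at 60.2 and 45.5 RPKM in R+LE, Clec4a3 at 29.6 and 22.4, and Clec4a1 at 23.1 and 21.5. All 3 overlapped with +R, and their log2 differences were -0.22, -0.17 and -0.18, with adjusted p-values between 0.487 and 0.626. With LE, all 10 osteoclast markers fell, 2 of 8 macrophage markers rose (Cd14 and Mertk) and 2 of 3 stromal markers tested fell (Col1a2 and Col3a1). Plac8 of the monocyte list and Mmp8 of the neutrophil list rose, and Ccr2 of the monocyte list fell. Over all genes tested, 5.19% passed as higher with LE and 6.86% as lower. The part of these marker shifts in the receptor values was not tested.

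**Figure D2:**
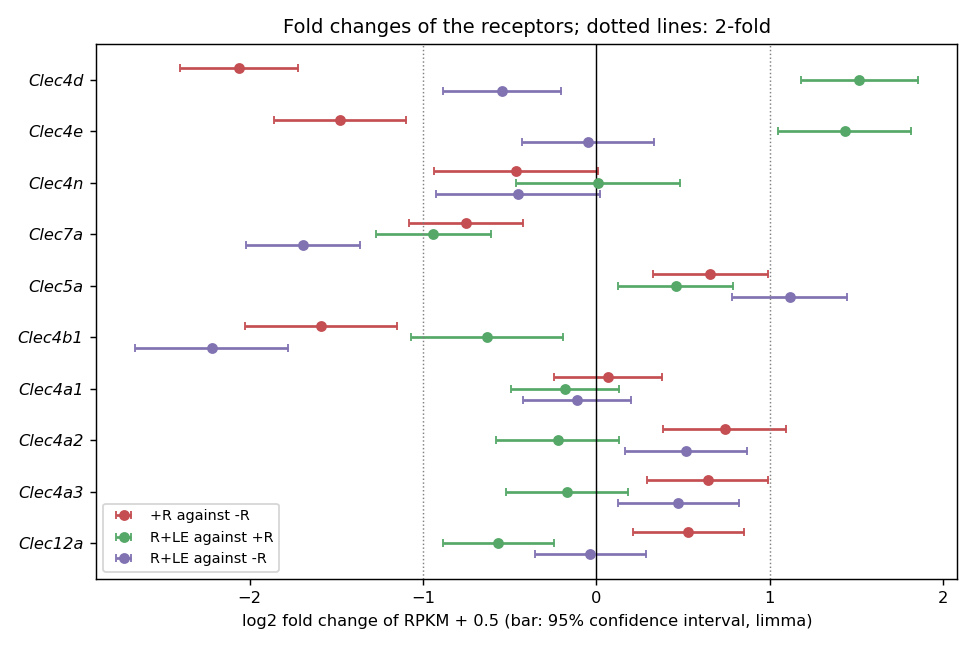
Log2 fold change of RPKM + 0.5 (horizontal axis) of the 10 receptors in the 3 comparisons, from limma; bars are 95% confidence intervals and dotted lines mark 2-fold. Clec4d and Clec4e sit at -2.06 and -1.48 with RANKL and at 1.52 and 1.43 with LE, while Clec7a lies left of 0 in all 3 comparisons.

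**Figure D3:**
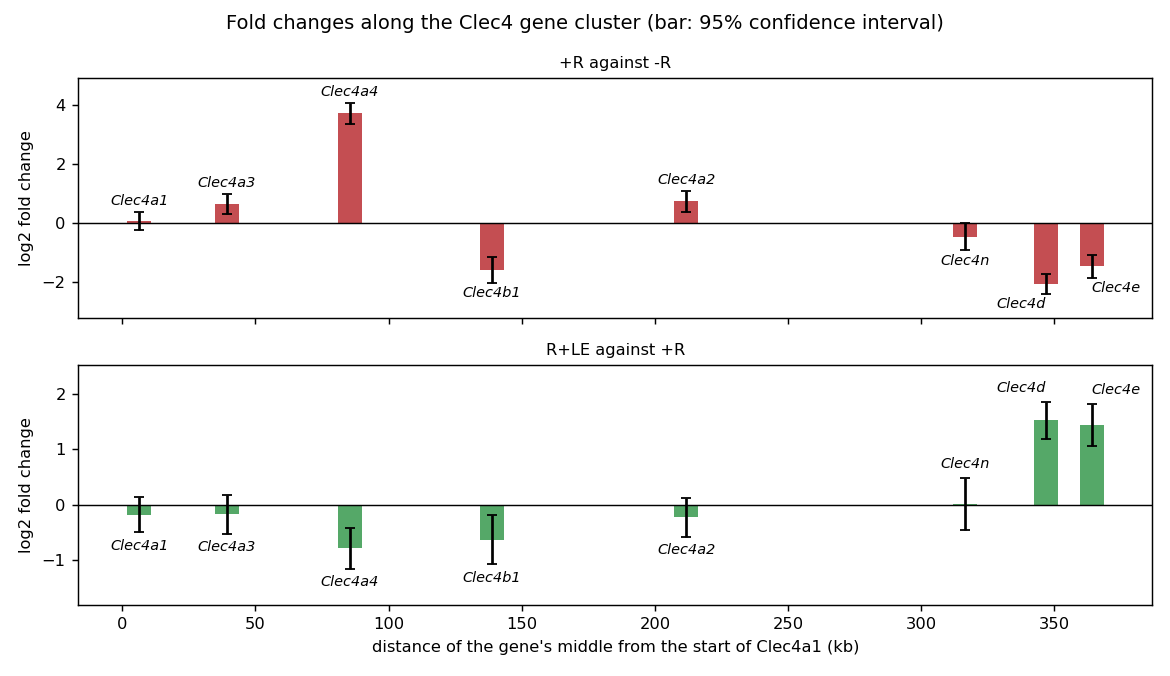
Log2 fold changes (vertical axis) of the tested Clec4 genes against the distance of each gene's middle from the start of Clec4a1 in kb (horizontal axis), for +R against -R and R+LE against +R; bars are 95% confidence intervals. Clec4d and Clec4e at the right end carry the 2 largest LE differences, 1.52 and 1.43, next to Clec4n at 0.01; Clec4a4 is shown as a gene of the cluster outside the 10.

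The comparison of R+LE with -R shows where cells given both agents stood against cells given neither. Clec4e and Clec12a were near their -R levels, Clec4d stayed lower, and Clec7a, Clec4b1 and Clec5a had mean levels farther from -R than in +R. Of the 10, 3 passed as higher (Clec4a2, Clec4a3 and Clec5a) and 3 as lower (Clec4b1, Clec4d and Clec7a), where 15.3% of all genes passed as higher and 19% as lower (34.3% together). At 2-fold, Clec5a was called higher and Clec4b1 and Clec7a lower, where 3.92% of all genes were called higher and 6.36% lower. The median log2 fold change of the 10 was -0.08, against -0.01 over all genes tested.

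Clec4e had 20.8 and 19.6 RPKM for -R and 21.9 and 17.3 for R+LE, which enclosed the -R values. The log2 difference was -0.05 (95% confidence interval -0.43 to 0.33, adjusted p = 0.869), and its sign turned when log values were centred on each library's median. Clec12a, at 57.7 and 59.4 RPKM for -R and 62.1 and 52.6 for R+LE, differed by -0.04 (95% confidence interval -0.35 to 0.28, adjusted p = 0.884), and its sign turned in the same way. For Clec4d, 187 and 150.0 RPKM in R+LE lay under 245 and 243 in -R, and it was 1.46-fold lower (log2 -0.54 ± 0.16 SE, adjusted p = 0.0153). That difference did not pass without -R replicate 1 or without -R replicate 2 (adjusted p = 0.123 and 0.11).

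Clec7a fell from 15.7 and 15.4 RPKM in -R to 5.09 and 3.90 in R+LE, 3.23-fold (log2 -1.69 ± 0.15 SE, adjusted p = 6.15e-07). Clec4b1 was 4.65-fold lower (log2 -2.22 ± 0.21 SE, adjusted p = 7.47e-07), and Clec5a was 2.16-fold higher (log2 1.11 ± 0.16 SE, adjusted p = 4.72e-05). These 3 were called under all 16 alternatives. Clec4a2 and Clec4a3 were higher than in -R by 0.52 and 0.47 on the log2 scale (adjusted p = 0.0251 and 0.0368). Both did not pass without either -R replicate or without R+LE replicate 1, with adjusted p-values of 0.163, 0.134 and 0.142 for Clec4a2 and 0.293, 0.0757 and 0.225 for Clec4a3. Clec4n differed by -0.45 (adjusted p = 0.132), and it passed without R+LE replicate 1, +R replicate 1 or +R replicate 2 (adjusted p = 0.00965, 0.0293 and 0.0251). Clec4a1 differed by -0.11 (adjusted p = 0.59).

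The repertoire of the 10 receptors shifted with these changes. Their summed RPKM was 456 and 450.2 for -R, 331 and 279 for +R, and 427 and 341 for R+LE. The -R libraries were the highest and the +R libraries the lowest, and the conditions did not overlap, although R+LE replicate 2 was close to +R replicate 1. Without Clec4d the sums were 211 and 207 for -R, 271 and 222 for +R, and 241 and 191 for R+LE, and they overlapped between +R and R+LE and between -R and R+LE. Clec4d made up 53.8% and 54.1% of the summed RPKM for -R, 18.01% and 20.4% for +R, and 43.7% and 43.9% for R+LE. Clec12a made up 12.7% and 13.2% for -R, 27.3% and 28.6% for +R, and 14.5% and 15.4% for R+LE. Of the summed reads, which are not divided by transcript length, Clec4d held 43.5%, 13.1% and 32.6% in the 3 conditions. Clec7a made up 3.43% ± 0.0105 (SD, n = 2) for -R, 2.97% for +R and 1.17% for R+LE. Among the 11595 genes, Clec4d moved from rank 219 for -R to 945 for +R and 272 for R+LE, Clec4e from 2889 to 6192 and 2787, and Clec7a from 3631 to 5379 and 7523.

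**Figure D4:**
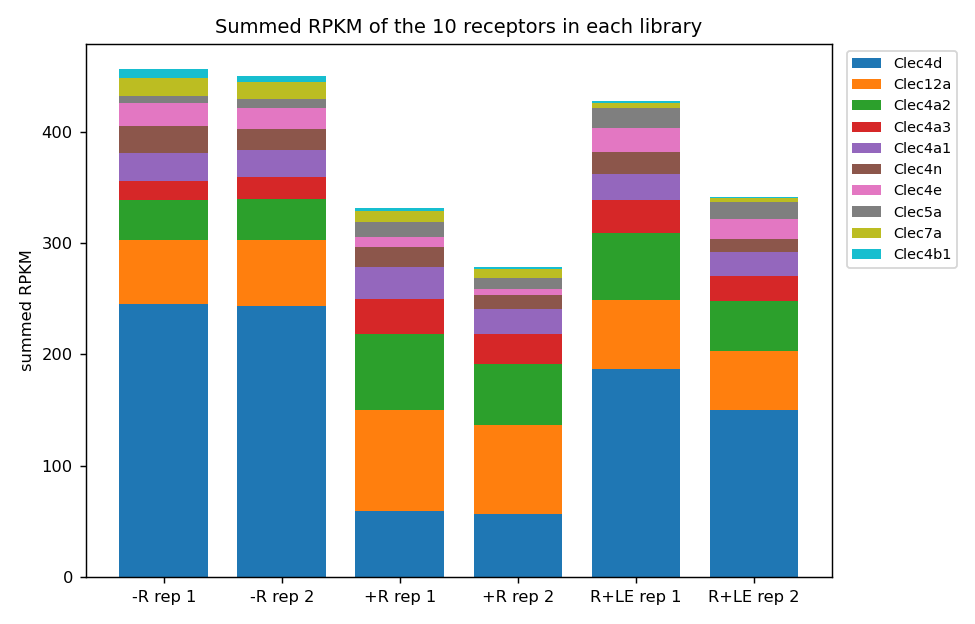
Stacked RPKM of the 10 receptors (vertical axis, from 0) in each of the 6 libraries; each colour is a gene. Clec4d, at the bottom, takes on average 53.9% of the stack for -R, 19.2% for +R and 43.8% for R+LE.

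Around the receptors, 7 lists of pathway genes held 108 genes, of which 70 could be tested. In the list of ITAM adaptors and adjacent kinases, 1 of 12 rose with RANKL and 7 fell, beside 23.9% and 21.5% of all genes tested, while none passed with LE under limma or with voom (1 was lower at an unadjusted p below 0.05), beside 12% of all genes. These shares of all genes are the background for the other lists too. Fcer1g, the FcRγ chain that Clec4d, Clec4e, Clec4n and Clec4b1 need, had 278 and 303 RPKM for -R, 148 and 120 for +R, and 195 and 135 for R+LE. It fell with RANKL (log2 -1.12, adjusted p = 0.000192), and with LE the libraries overlapped (log2 0.29, adjusted p = 0.426). Tyrobp (DAP12), the partner of Clec5a, had means of 537, 495 and 433 RPKM in -R, +R and R+LE and passed in neither comparison (adjusted p = 0.624 and 0.62). Syk fell with RANKL by 0.40 on the log2 scale (adjusted p = 0.028), from a mean of 52.7 to 39.9 RPKM, and was at 31.7 in R+LE (adjusted p = 0.153 against +R). Fgr, a kinase of the Src family, rose with RANKL (log2 2.53, adjusted p = 7.5e-10), whereas Lyn of the same family (log2 -1.04, adjusted p = 4.68e-05) and the exchange factor Vav3 (log2 -1.26, adjusted p = 1.81e-05) fell.

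In the list of the Card9 route to NF-κB, 5 of 12 rose (Relb, Malt1, Rel, Nfkb1 and Prkcd) and 2 fell with RANKL, and 2 fell with LE. The 2 that fell with RANKL are near the 21.5% of all genes that did. Card9 itself had means of 7.26, 7.95 and 8.97 RPKM and passed in neither comparison. Relb and Malt1, a subunit of NF-κB and the protease of the Card9 complex, rose with RANKL (log2 2.27 and 1.73) and were the 2 that fell with LE (log2 -0.46 and -0.49, adjusted p = 0.0493 and 0.0351). Trim62, the ligase that activates Card9, fell with RANKL (log2 -1.26, adjusted p = 7.36e-05). In the list of the inhibitory route, 1 of 5 rose and 2 fell (Inpp5d and Cblb) with RANKL and 1 fell with LE, and these differences were all under 2-fold. Ptpn6 (SHP-1) was the one that rose with RANKL, from a mean of 75.1 to 140.2 RPKM (log2 0.89, adjusted p = 0.000374), and Cblb, a ligase that restrains Syk signalling, was the one that fell with LE (log2 -0.62, adjusted p = 0.0119). Ptpn6, Inpp5d, Cblb, Rel, Nfkb1 and Prkcd were named after their values were seen.

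Among partners and ligands, 1 of 9 tested rose (Anxa1) and 5 fell (Lgals3, Anxa5, Tlr6, Sap130 and Itgb2) with RANKL, and 1 rose with LE. Lgals3, the galectin that assists fungal recognition by Clec7a, fell from a mean of 1425 to 494 RPKM with RANKL (log2 -1.52, adjusted p = 1.71e-05). The one that rose with LE was Tlr2, a Toll-like receptor that acts beside Clec7a (log2 0.67, adjusted p = 0.0128). Apart from Lgals3, these were named after their values were seen. Of 18 genes known as outputs of these receptors, 10 could be tested, and 2 rose (Egr2 and Egr3) and 8 fell with RANKL. The chemokines Ccl4, Ccl3 and Cxcl2 fell most (log2 -3.47, -2.85 and -2.56). With LE, 2 rose and 3 fell. Nlrp3, the inflammasome sensor, rose from 4.42 and 4.38 RPKM to 9.45 and 9.74 (log2 1.04, adjusted p = 8.84e-05), whereas the early response factors Egr2 and Egr3 fell (log2 -1.499 and -1.32, adjusted p = 1.46e-05 and 0.00187). Egr2 went from 4.58 and 4.21 RPKM to 1.24 and 1.22, and Egr3 from 1.02 and 1.49 to 0.172 and 0.221. The others, named after their values were seen, were the cytokine Tnf, which rose from 2.79 and 1.88 RPKM to 4.25 and 4.67 (adjusted p = 0.00453), and the interleukin-1 receptor antagonist Il1rn, which fell from 22.3 and 14.4 to 9.72 and 8.28 (adjusted p = 0.00207).

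In the list of myeloid transcription factors, 5 of 7 fell with RANKL and with LE 4 of 7 rose. None rose with RANKL under limma (1 did at an unadjusted p below 0.05 and 1 by voom), and none fell with LE by either tool or at an unadjusted p below 0.05. Irf8 and Cebpa, which uphold the monocyte and macrophage state, fell with RANKL (log2 -3.70 and -2.19). Cebpb had 52.5 and 48.5 RPKM for -R, 22.7 and 20.1 for +R, and 33.3 and 36.1 for R+LE, with no overlap between conditions. It fell with RANKL (log2 -1.22, adjusted p = 4.29e-06) and rose with LE (log2 0.69, adjusted p = 0.00416). Any link between these factors and the receptors was not tested. Klf4 (log2 0.89) and Irf8 also rose with LE (for Irf8 log2 0.61, from 4.07 and 5.21 RPKM to 7.88 and 6.76). Hif1a also fell with RANKL (log2 -0.73). Cebpb, Klf4 and Hif1a were named after their values were seen. Over all genes tested, 5.19% passed as higher with LE, and the median log2 fold change of this list with LE was 0.61, against -0.05 over all genes tested.

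Of 44 other genes with a C-type lectin-like domain, only 15 were expressed enough to be tested, of which 3 rose (Clec4a4, Clec2d and Clec1b) and 9 fell with RANKL, and 6 rose and 3 fell (Clec2d, Mrc1 and Clec4a4) with LE. Of all genes tested, 23.9% rose and 21.5% fell with RANKL and 5.19% rose and 6.86% fell with LE, so the 3 rises with RANKL are no more than the background share. The most abundant were Cd93, Cd72 and Colec12. Cd93, a receptor of myeloid and endothelial cells, followed the same order as Clec4d, with 91.7 and 105 RPKM for -R, 17.0 and 18.7 for +R, and 40.2 and 36.3 for R+LE (log2 -2.43 with RANKL, and 1.08 with LE, adjusted p = 0.000132). Clec2d, which encodes a ligand of NK cell receptors, had 8.47 and 5.02 RPKM for +R and 2.60 and 2.69 for R+LE, and fell with LE (log2 -1.16, adjusted p = 0.00458). Cd72, an inhibitory receptor, had means of 39.6, 35.5 and 26.1 RPKM in -R, +R and R+LE and passed in neither of these comparisons (adjusted p = 0.375 and 0.0522). Colec12, a scavenger receptor, had means of 20.1, 14.8 and 25.5 RPKM, fell with RANKL (adjusted p = 0.0193) and rose with LE (adjusted p = 0.00169). With RANKL, the largest rise was in Clec4a4 (DCIR2), an ITIM receptor inside the Clec4 cluster, from 0.157 and 0.159 RPKM to 9.56 and 7.06 (log2 3.73, adjusted p = 1.65e-10), and Olr1, Cd302 and Thbd fell (log2 -2.38, -1.79 and -1.54). Clec1b and Mrc1, the mannose receptor, were named after their values were seen.

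**Figure D5:**
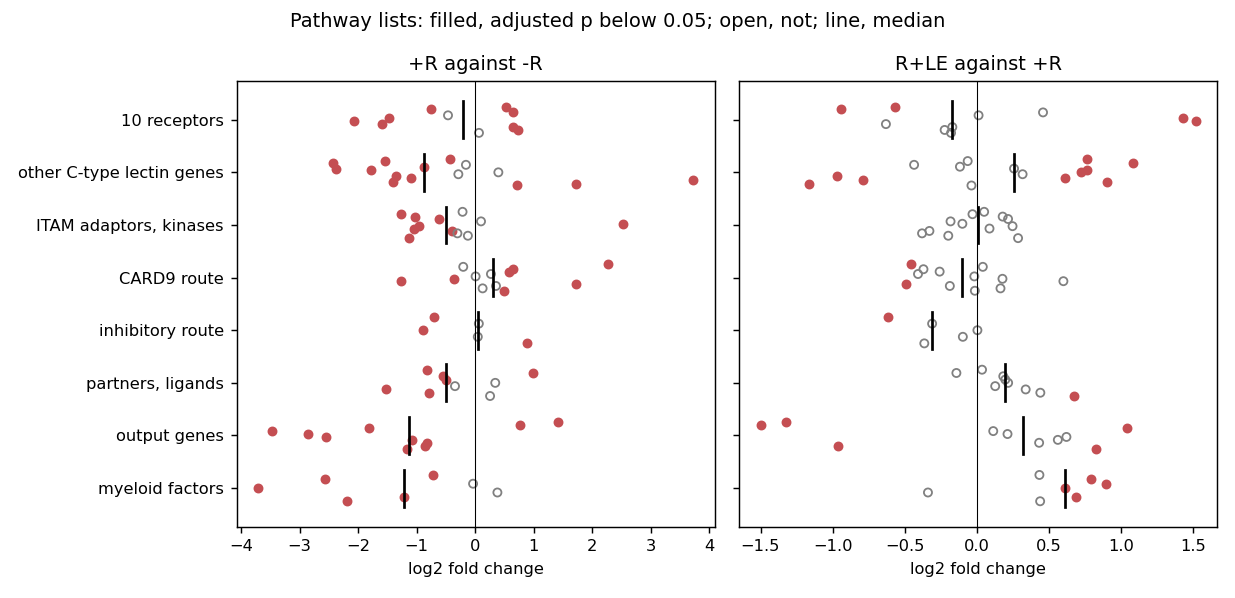
Log2 fold change (horizontal axis) of every tested gene of the 10 receptors and the 7 pathway lists (rows), for +R against -R and R+LE against +R; filled points passed at an adjusted p below 0.05, open points did not, and the black line is the median. The median of the myeloid factors is 0.61 with LE, and none of the ITAM adaptors and kinases is filled there.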

How the data were processed

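Gene expression was measured by RNA sequencing in 6 libraries, 2 for each of -R, +R and R+LE, grouped by the sample labels. The authors aligned reads to mm10 (TopHat in the methods, HISAT2 in the submitters' processing notes), counted exonic reads without regard to strand with HOMER, and deposited RPKM values, one transcript a gene; DESeq2 is also named in those notes, without versions. Whole reads were recovered from RPKM and length (100% of checked values within 0.1 of a whole number) and gave the depth. Of the symbols, 26 had become dates and were restored by transcript. Here limma 3.58.1 in R 4.3.3 fitted log2(RPKM + 0.5) for the 11595 genes whose mean was not under 0.5 RPKM, with a variance trend and Benjamini-Hochberg adjustment. The fit was also run on simulated reads, whose spread between libraries was set rather than taken from these libraries. There it called 88.8% of genes given a log2 change of 1.5 and 94.9% of those given 2, in either direction. It also called 11 unchanged genes, with 11593 genes tested. Tables and plots used pandas 2.3.3, numpy 2.4.6 and matplotlib 3.10.9 under Python 3.11.15. The receptors, the 7 pathway lists and the marker lists were chosen with earlier results of these data known. Named from the lists were genes called with LE, up to 3 rises and 3 falls called with RANKL alone, the 3 other C-type lectin genes with the highest mean, and Fcer1g, Tyrobp, Syk and Card9; some list members are not reported here. Promoters came from RefSeq, exons from GENCODE M21. Alternatives were other pseudocounts and filters, no trend, fits of 2 groups, centring, quantile normalization, a replicate block, voom on recovered reads and each library left out.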

Additional observations from a re-analysis of the deposited data

How the results depend on the processing

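Calls of Clec4d, Clec4e and Clec4b1 with RANKL, of Clec4d and Clec4e with LE, and of Clec5a, Clec7a and Clec4b1 in R+LE against -R were the same under all 16 alternatives. The number of receptors called lower with LE, 0, became 1 with a pseudocount of 0.1 or voom on recovered reads, and ranged from 0 to 1 when each library was left out; the gene was Clec7a. The number of pathway genes called higher with LE went from 2 to 1 with a pseudocount of 1 and to 3 with a pseudocount of 0.1 or voom, and ranged from 2 to 3 when each library was left out. By recovered reads in place of RPKM, the share of Clec4d was 43.5% for -R, 13.1% for +R and 32.6% for R+LE, since reads are not divided by length. Differences that had not passed changed sign under some settings, and the cause was not tested. Over the libraries left out one at a time, Clec4a1 with RANKL ranged from -0.0949 to 0.2268, Clec4a3 with LE from -0.3673 to 0.0268, Clec4n with LE from -0.343 to 0.3661, and in R+LE against -R Clec4e from -0.213 to 0.1177 and Clec12a from -0.1547 to 0.0842. These last were also 0.0067 and 0.0191 after centring on the median and 0.0392 and 0.0433 after quantile normalization. Deviations of same-numbered libraries correlated at -0.05 between -R and +R, 0.11 between -R and R+LE, and 0.25 between +R and R+LE. These values do not settle whether the replicate numbers pair the libraries, least of all for +R and R+LE. With the replicate block, 1801, 389 and 1200 genes were called in the 3 comparisons, against 1797, 375 and 1192, and the receptors called stayed at 3 with RANKL, 2 with LE and 3 in R+LE against -R. With it, Clec4n also passed with RANKL and in R+LE against -R (adjusted p = 0.00723 and 0.0115), as did Clec4b1 and Clec5a with LE (0.00809 and 0.0315). Clec4b1 with LE also passed with a pseudocount of 0.1 (0.0488) and a filter at 1 RPKM (0.04), and Clec5a with LE after centring on the median (0.025) and quantile normalization (0.0247). Voom on recovered reads also passed Clec4n in both (0.0101 and 0.0161) and Clec5a with LE (0.0164), and the fit of 2 groups passed Clec4n in both (0.0345 and 0.0313). Clec12a with LE did not pass without the filter (0.0783) or in a fit of 2 groups (0.0721), and Clec4a2 and Clec4a3 in R+LE against -R did not pass without the filter (0.104 and 0.136), nor did Clec4a3 without the variance trend (0.0599). Clec4b1 rested on the fewest reads of the 10 (18 at the lowest), and Clec4n had the largest standard error (0.22). Reads from the windows that Clec4b1 and Clec4a2 have in common were not resolved.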
